A study of Rattus norvegicus with 4 samples.

Results

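The plasminogen activators, the urokinase receptor, 3 serpins and the tissue inhibitors of metalloproteinases were followed in cultured rat testicular peritubular myoid cells, with and without testosterone. The set was 9 genes, Plat, Plau, Plaur, Serpine2, Serpinf1, Serping1, Timp1, Timp2 and Timp3, taken by the gene name printed in the scanner files or an older symbol of it. All 9 had a probe under the current symbol, and they accounted for 11 of the 41012 probes on the array and for 9 of its 35666 genes and unnamed transcripts. Expression was measured on 4 one-colour arrays, 2 from testosterone cells and 2 from control cells. The cells came from testes of rats aged 40 days and had 4 days of culture with defined growth factors, and the testosterone group received 1e-07 M testosterone in pulses. The treatment text is the same for both groups, so what the control cells received in place of testosterone was not stated. The labels also do not say whether the 2 arrays of a group came from separate animals or cultures, so every p-value reflects just how far these arrays differ, and that spread can be technical. The question behind the comparison, per the series title, is which genes the hormone induces here.

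Plasminogen activators are serine proteases that cleave plasminogen to plasmin, a broad protease that digests fibrin and matrix proteins and activates some matrix metalloproteinases. Plat is the tissue-type and Plau the urokinase-type activator, and Plaur is the receptor that holds urokinase at the cell surface. Serpins are suicide inhibitors of serine proteases, and TIMPs block the active site of metalloproteinases. In the testis these enzymes and inhibitors take part in remodelling of the tubule wall, which myoid cells help to build.

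No member differed between testosterone and control beyond the spread between arrays. Levels are log2 processed signals relative to the 75th percentile of the same array, so 0 is that percentile and a step of 1 is a doubling. Of the 9 genes 8 were tested, meaning that 1 or more groups had a probe detected (well above background) on both of their arrays. Testosterone minus control was above 0 for 6 of these and below 0 for 2, and it ran from -0.14 for Plau to 0.12 for Timp3 with a median of 0.04. Among the 6, Serping1, Timp1 and Timp2 were read from probes saturated on all 4 arrays, so their differences do not measure the genes. Over all 22046 genes and unnamed transcripts tested the median difference was -0.01, and 47.9% had a difference above 0. In limma 0 members and 0 of all genes had an adjusted p under 0.05 (0% of all genes in each direction), and 0 members had an unadjusted p under 0.05 against 0.794% of all genes (175). For no member did the 2 testosterone arrays lie wholly above or below the 2 control arrays, where the groups lay apart for 6.03% of all genes upward and 9.09% downward. With 8 members, a count of 0 is near that background.

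**Figure D1:**
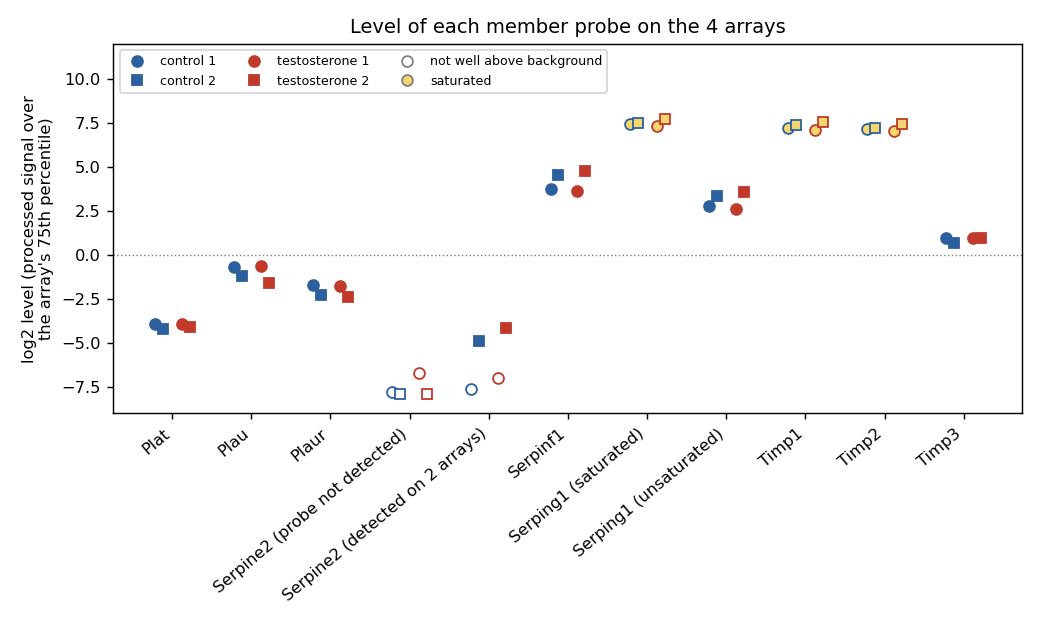
Log2 level of each of the 11 member probes on the 4 arrays, relative to the 75th percentile of the array, with control in blue, testosterone in red, circles for arrays numbered 1 and squares for arrays numbered 2. Open symbols were not well above background and yellow ones were saturated; levels of different probes are not comparable with each other. Within each probe the red and blue symbols overlap, from Plat near -4 to Timp1 near 7.

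**Figure D2:**
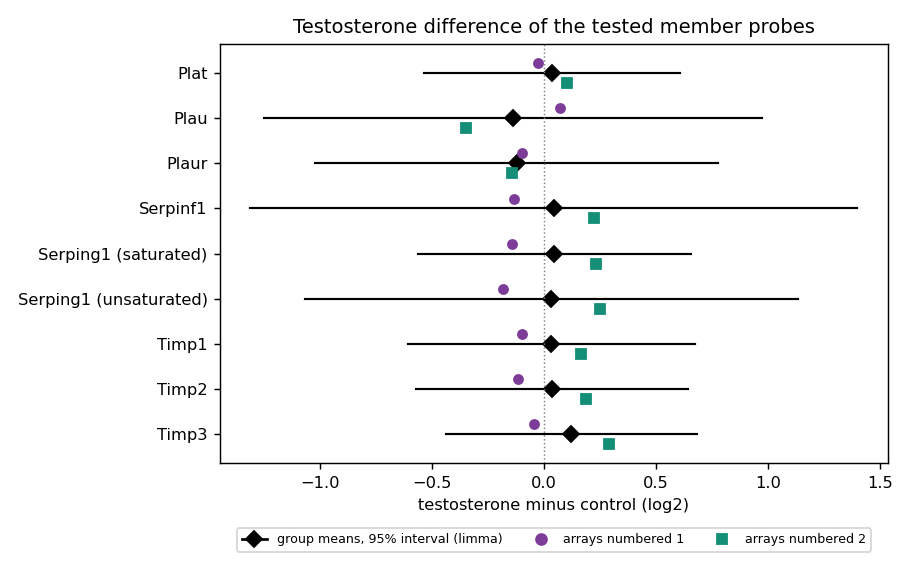
Testosterone minus control on the log2 scale for the 9 tested member probes. Diamonds and lines are the difference of group means with limma's 95% interval, circles the difference between the arrays numbered 1 and squares that between the arrays numbered 2. Every interval includes 0, and for every probe but that of Plaur the circle and the square lie on opposite sides of 0. The brighter Serping1 probe and the probes of Timp1 and Timp2 were saturated.

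The promoters of the urokinase system and of the serpins whose signal differed most between arrays of 1 group are shown for reference. RefSeq's promoter table (build GRCr8) held 7 of the 9 members, and Plat and Serping1 were not in it. Each sequence is the 250 bases before the annotated start, 5′ to 3′ on the gene's strand. Capitals mark matches on either strand to 5 motifs. The half-site bound by androgen and glucocorticoid receptors was searched as AGAACA. The AP-1 site was searched as TGANTCA. For the GC box the letters were GGGCGG. For the core promoter element that binds TBP they were TATAAA. For STAT factors they were TTCNNNGAA. Adjoining capitals can hold more than 1 match, and GC boxes can overlap.
Plau (chr15:3511988-3512237, minus strand): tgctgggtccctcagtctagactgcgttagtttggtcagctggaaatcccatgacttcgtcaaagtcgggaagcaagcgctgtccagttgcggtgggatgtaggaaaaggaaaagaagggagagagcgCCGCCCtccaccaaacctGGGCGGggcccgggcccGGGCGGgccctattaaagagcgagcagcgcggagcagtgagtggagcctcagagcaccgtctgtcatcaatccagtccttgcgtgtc
Plaur (chr1:89181113-89181362, plus strand): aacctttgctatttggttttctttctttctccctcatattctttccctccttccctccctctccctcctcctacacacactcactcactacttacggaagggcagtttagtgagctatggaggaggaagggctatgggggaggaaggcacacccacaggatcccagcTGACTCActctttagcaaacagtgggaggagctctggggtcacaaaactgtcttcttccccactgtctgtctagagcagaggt
Serpine2 (chr9:88637203-88637452, minus strand): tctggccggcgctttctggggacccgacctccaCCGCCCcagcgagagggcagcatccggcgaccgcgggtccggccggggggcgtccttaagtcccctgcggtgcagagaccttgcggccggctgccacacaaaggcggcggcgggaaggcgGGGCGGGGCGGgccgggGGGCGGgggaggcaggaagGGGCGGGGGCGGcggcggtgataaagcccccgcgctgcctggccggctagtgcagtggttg
Serpinf1 (chr10:60760899-60761148, minus strand): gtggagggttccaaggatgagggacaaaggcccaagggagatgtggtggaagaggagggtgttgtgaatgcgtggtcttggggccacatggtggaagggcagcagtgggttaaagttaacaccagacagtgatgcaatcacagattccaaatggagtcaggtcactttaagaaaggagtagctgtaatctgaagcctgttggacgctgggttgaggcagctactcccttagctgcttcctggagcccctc

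In these windows Plau had 3 GC boxes, at 122, 104 and 87 bases before the start. Serpine2 had 6, and Plaur had 1 AP-1 match, TGACTCA, at 83 bases before the start. Serpinf1 had no match to any of the 5. Among the members not printed, Timp1 and Timp2 had 1 GC box each and Timp3 had 3. AGAACA or its complement was in none of the 7 windows and in 17.5% of the 33469 windows of that length in the table. GC boxes were in 30.5% of them, AP-1 matches in 6.34%, the TBP element in 12.9% and the STAT motif in 7.67%, and the TBP and STAT letters were in none of the 7 members' windows. These are matches of letters, and a missing match says only that the letters are not in this window.

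Of the activators, Plau gave the clearer signal. Its 1 spot (chromosome 15, 3680711 to 3680770, rn4) had processed signals of 305 and 119.7 on testosterone arrays 1 and 2, and of 263 and 171 on control arrays 1 and 2. In levels these were -0.60 and -1.56 with testosterone and -0.67 and -1.21 in control, so the testosterone arrays were at once the highest and the lowest of the 4 and the groups overlapped. The means were -1.08 ± 0.68 and -0.94 ± 0.39 (SD, n = 2), a difference of -0.14 with a 95% interval from -1.25 to 0.97 (adjusted p = 1.00 in limma). The interval spans 0.421-fold to 1.96-fold. Between the arrays numbered 1 Plau was 1.05-fold higher with testosterone, and between those numbered 2 it was at 0.786 of control.

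Plat was dim and was measured by 10 spots of 1 probe on each array (chromosome 16, 73717402 to 73717547). That interval covers 146 bases of the genome, against 60 bases for 8 of the 11 member probes. The testosterone arrays gave a mean signal of 30.0 and 20.4, and the control arrays 27.7 and 21.4. The levels were -3.95 and -4.12 with testosterone and -3.92 and -4.22 in control, so both testosterone arrays lay between the control arrays. The spread between spots of 1 array was 0.12 to 0.19 (SD on the log2 scale, 9 or 10 spots). The testosterone difference was 0.04 (-0.53 to 0.61, adjusted p = 1.00 in limma). Spots flagged as outliers were left out, 1 on testosterone array 1 and 1 on control array 2.

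**Figure D3:**
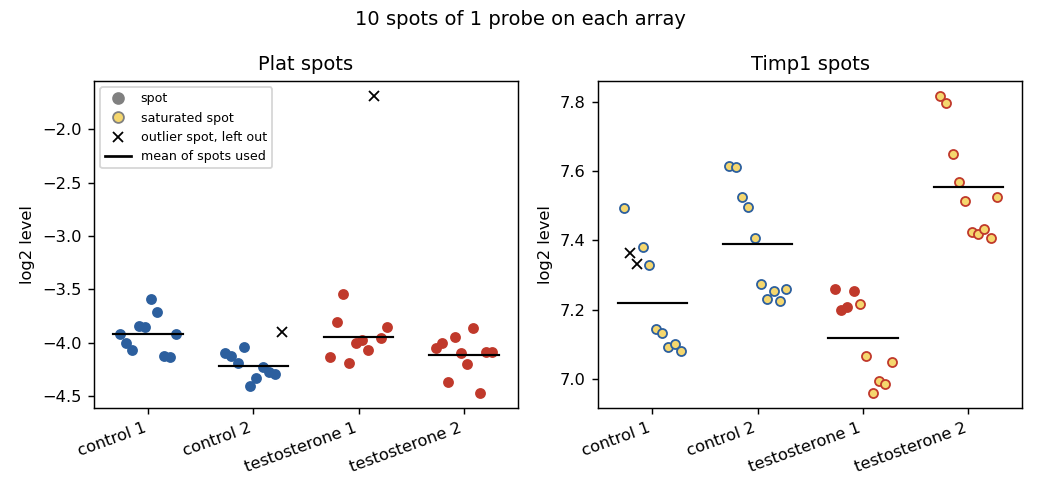
Log2 level of each of the 10 spots of the Plat and Timp1 probes on the 4 arrays, with the mean of the spots used as a line, saturated spots in yellow and outlier spots, left out, as crosses. The Plat spots of all 4 arrays overlap, apart from 1 outlier on testosterone array 1, and most Timp1 spots are saturated.

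Plaur, the urokinase receptor, read lower on the arrays numbered 2 in both groups, as Plau did. Its probe (chromosome 1, 79713035 to 79713094) had signals of 134 and 66.7 with testosterone and 129.9 and 82.9 in control, at levels of -1.79 and -2.41 against -1.69 and -2.26. Both arrays numbered 2 read lower than both arrays numbered 1, and the groups overlapped. The difference was -0.12 (-1.02 to 0.78, adjusted p = 1.00 in limma), which is 0.919-fold. Plaur was the 1 tested member with the same sign in both numbers, at -0.10 and -0.14. The level of Plau minus that of Plaur came to 1.19 and 0.84 under testosterone, against control values of 1.02 and 1.05, a difference of -0.02 between group means.

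Among the serpins, Serpine2 (protease nexin-1, an inhibitor of urokinase, tissue-type activator and thrombin) had no testable level. Its probe at chromosome 9, 79091862 to 79091921, was well above background on the arrays numbered 2, with signals of 20.1 for testosterone and 13.5 for control. On the arrays numbered 1 it was not well above background in either group, with signals of 3.57 and 2.14. The difference between the arrays numbered 2 was 0.74, or 1.68-fold, with no test, and without a detection filter the adjusted p of this probe was 1.00 in limma. The other Serpine2 probe (79114055 to 79114114) was below the detection limit on all 4 arrays. The 2 probes therefore disagreed on the arrays numbered 2, and a low level of Serpine2 and a poor probe cannot be told apart.

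Serpinf1 encodes pigment epithelium-derived factor, a secreted serpin that does not inhibit proteases and restrains vessel growth. It was bright at chromosome 10, 62714118 to 62714177, with signals of 5719 and 9728 with testosterone and 5684 and 9380.1 in control. Levels were 3.63 and 4.78 against 3.76 and 4.56, so the testosterone arrays were again the lowest and the highest. The means were 4.21 ± 0.81 and 4.16 ± 0.56 (SD, n = 2). The difference of 0.04 had the widest interval of the members, from -1.31 to 1.40 (adjusted p = 1.00 in limma).

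Serping1, the C1 inhibitor, controls complement C1 and plasma kallikrein and had 2 probes. The brighter (chromosome 3, 67968828 to 67968887) was saturated on all 4 arrays, with signals between 71951.3 and 75211.5, so its difference of 0.05 does not measure the gene. The unsaturated probe (67975119 to 67976458, an interval of 1340 bases) had signals of 2856 and 4287 with testosterone and 2938 and 4059 in control. Its levels were 2.63 and 3.60 against 2.81 and 3.35. The difference was 0.03 with an interval from -1.07 to 1.13 (adjusted p = 1.00 in limma with every probe fitted on its own). As with Serpinf1, the testosterone arrays enclosed the control arrays.

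Of the TIMPs, only Timp3 was measured within the range of the scanner. Timp3, which binds to the matrix and also inhibits ADAM proteases, had signals of 891 and 688 with testosterone and 834 and 633 in control (chromosome 7, 19679721 to 19679780). Its levels were 0.95 and 0.96 with testosterone and 0.99 and 0.67 in control, so both testosterone arrays lay between the controls. The means were 0.95 ± 0.01 and 0.83 ± 0.23 (SD, n = 2), and the difference of 0.12, the largest positive one among the 8 tested members, had an interval from -0.44 to 0.68 (adjusted p = 1.00 in limma). That interval spans 0.738-fold to 1.61-fold.

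The probes of Timp1 and Timp2 were saturated. The Timp2 spot (chromosome 10, 108311244 to 108311303) was saturated on all 4 arrays, with signals of 60434.7 and 61181.2 with testosterone and 59341.5 and 60433.7 in control. For Timp1 (chromosome X, 12542700 to 12543703, an interval of 1004 bases) all spots used on 3 arrays and 6 of 10 on testosterone array 1 were saturated, and mean signals lay between 62376.3 and 66715.2. On the log2 scale both differed by less than 0.04 between groups, at 0.03 for Timp1 and 0.04 for Timp2. For a saturated probe the scaling alone moves the level. The 75th percentile of testosterone array 1 was 0.14 above that of control array 1 on the log2 scale, and that of testosterone array 2 was 0.17 below that of control array 2. Timp2 differed by -0.12 and 0.19 in the same pairs, so neither value measures a change of the transcript. Timp1 and Timp2 are therefore known here only to be bright in both groups.

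Protease against inhibitor was read as the change, between arrays, of a difference between 2 log2 levels of 1 array, since probes bind with different strength and the difference itself has no meaning. With all 3 TIMPs, the mean level of Plat and Plau minus that of the TIMPs changed by -0.11 from control to testosterone. The levels of Timp1 and Timp2 in it are saturated, so this value does not measure the balance against them. With the unsaturated Timp3 alone the change was -0.17, at 0.07 between the arrays numbered 1 and -0.41 between those numbered 2. The sign of the change against all 3 TIMPs rested on single arrays, since it was -0.54 without testosterone array 1 and -0.32 without control array 2, but 0.31 without testosterone array 2 and 0.09 without control array 1. Plau minus Timp3 came to -1.55 and -2.52 under testosterone, against -1.66 and -1.88 in control. Testosterone array 1 was the highest and testosterone array 2 the lowest of the 4, so the change was 0.12 between the arrays numbered 1 and -0.64 between those numbered 2. Plat minus Timp3 came to -4.89 and -5.07, against control values of -4.91 and -4.89, a change of -0.08. Plat and Plau minus Serpine2 changed by -0.72, but its values of 4.75 and 1.30 with testosterone and 5.32 and 2.16 in control rest on arrays where Serpine2 was not well above background. On the arrays numbered 2, where all 3 genes were, the change was -0.87, with 1 array a side and no test. Leaving out 1 array moved the change of -0.72 to -2.44 without testosterone array 1, -2.30 without control array 2, 0.86 without control array 1 and 1.01 without testosterone array 2, so its sign turned. With normexp background correction and quantile normalization it was -0.21.

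**Figure D4:**
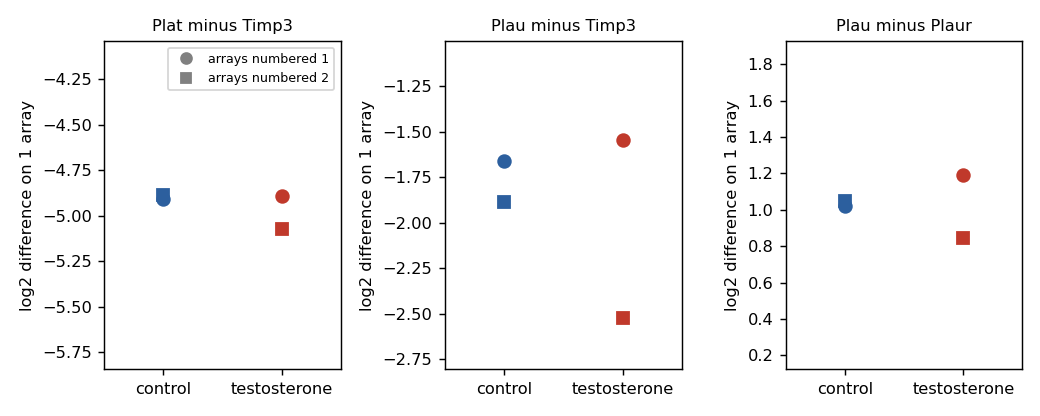
Difference of 2 log2 levels on each array, for Plat minus Timp3, Plau minus Timp3 and Plau minus Plaur, with control in blue, testosterone in red, circles for arrays numbered 1 and squares for those numbered 2. In each panel the axis spans the same range; the testosterone squares are the lowest value in all 3 panels and the testosterone circles the highest in the 2 panels with Plau.

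Most members differed more between the 2 arrays of a group than between groups, Timp3 on the testosterone arrays being an exception. The same order held over all genes, where the median absolute difference was 0.26 between the means of the arrays numbered 2 and those numbered 1, and 0.10 between testosterone and control. Plau was 0.96 lower on testosterone array 2 than on testosterone array 1 and 0.54 lower on control array 2 than on control array 1. Plaur was 0.62 and 0.57 lower. Serpinf1 went the other way, 1.15 and 0.80 higher, which is 2.22-fold and 1.74-fold, and the unsaturated Serping1 probe was 0.97 and 0.54 higher. Plat was 0.17 and 0.30 lower, and Timp3 was 0.01 higher and 0.32 lower. The testosterone difference changed sign between the numbers for 7 of the 8 tested members. The share of all genes with such a change was not computed, so this count has no background beside it. Serping1, Timp1 and Timp2 were counted on saturated probes, where the scaling moves the level. Among the 5 unsaturated members the sign changed for Plat, Plau, Serpinf1 and Timp3 and not for Plaur. With testosterone 7 members, these saturated ones included, read lower and 1 higher among the arrays numbered 1, and 6 higher and 2 lower among those numbered 2. Over all genes the median difference was -0.06 in number 1 and 0.04 in number 2. These values are descriptions of 2 arrays a group, with no test.

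**Figure D5:**
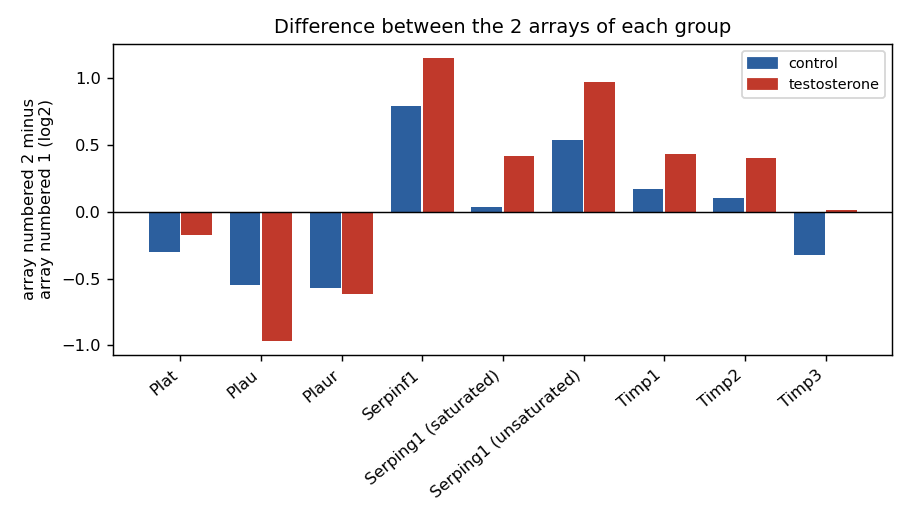
Log2 level on the array numbered 2 minus that on the array numbered 1 of the same group, for the 9 member probes well above background on all 4 arrays, with control in blue and testosterone in red. Bars for Plau and Plaur point down and those for Serpinf1 and Serping1 up in both groups, reaching -0.96 for Plau and 1.15 for Serpinf1 with testosterone. The bars of Timp1, Timp2 and 1 of the Serping1 probes come from saturated probes.

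Some markers of several cell types were detected, and the tested germ cell markers other than Ddx4 moved with the array numbers. All 12 macrophage markers on the array were well above background on all 4 arrays, and so were 7 of 9 Leydig cell, 8 of 12 Sertoli cell and 5 of 10 endothelial markers. The Sertoli cell markers Sox9, Fshr and Gata1 were so on 1 array each and Wt1 on 0. Those detected on all 4 arrays included Clu, between 2.13 and 3.09, and Tf, between 2.62 and 2.90. Of the Leydig cell markers, Lhcgr was so on 0 arrays and Hsd17b3 on 2. Star, between 5.53 and 6.31, and Insl3, between 5.25 and 5.74, were bright in both groups, while Cyp11a1 lay between -3.33 and -2.20. Of the endothelial markers, Tek was so on 0 arrays, Tie1 on 1, Pecam1 and Emcn on 2 and Flt1 on 3. These counts and levels do not show which of these cells were present. Of 11 peritubular and smooth muscle markers on the array 9 were, Acta2 and Myh11 were not among the probe names, and Cnn1, calponin, was below that limit on all 4 arrays. Myl9, a myosin light chain, was bright in both groups, at 5.68 and 5.86 with testosterone and 5.98 and 6.11 in control, while Tagln, transgelin, stood between -4.63 and -2.75. The mean level of the 5 tested germ cell markers was -3.61 and -4.36 on testosterone and control array 1 and -0.49 and -0.53 on the arrays numbered 2. Prm1, Tnp1, Tnp2 and Ldhc were each higher on the array numbered 2 in both groups. Ddx4 went from -2.56 to -3.83 with testosterone and from -7.59 to -3.96 in control, so its control array 1 value lowers that mean. Of the 10 germ cell markers on the array 3 were well above background on all 4 arrays. For the macrophage markers the mean lay between 2.06 and 2.19 on all 4 arrays, and for the endothelial markers between -2.50 and -1.85. In bulk RNA a change in the number of cells of a type and a change in RNA per cell cannot be told apart, and the part of other cells in the members' levels was not tested. Between 63.5% and 68.2% of the spots of an array were well above background, and all 4 arrays shared 1 slide. In columns 57 to 85 of the array the spots of control array 1 scattered more around the mean of the other arrays than elsewhere, with an SD of 0.57 against 0.35 on the log2 scale, where the other arrays had 0.34 to 0.45 in those columns. These columns held 0 of the 9 member probes with a single spot, 4 of 10 Plat spots and 3 of 10 Timp1 spots. They also held the probes of Ddx4, Prm1, Tnp2 and Ldhc. The Tnp1 probe lay outside them, with levels of -3.42 and 1.59 with testosterone and -2.80 and 1.59 in control. The part of that area in the germ cell means was not tested.

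Other genes of the plasminogen system and other serpins showed the same lack of calls. Of 31 listed genes 30 were on the array and 21 were tested, and 9 had positive and 12 negative differences with a median of -0.02. In limma 0 passed in either direction. Plg, plasminogen itself, was below the detection limit on all 4 arrays. Serpinb2, an inhibitor of urokinase, differed by 0.47 with an interval from -3.27 to 4.20, since its levels were -1.91 and 1.03 with testosterone and -2.33 and 0.52 in control. Tfpi2, a Kunitz inhibitor of plasmin and trypsin, was the 1 gene of the 21 tested with its groups apart, at -2.12 and -2.02 against -2.76 and -2.24. Over all genes 6.03% were apart upward, so 1 of 21 is near that background. Its difference was 0.44 (-0.24 to 1.11), and control array 1 was the lowest. The probes of Serpinb2, Tfpi2, Serpinf2 and Hgf lay in columns 57 to 85, and the part of that area in their values was not tested. Serpinf2, the main plasmin inhibitor, differed by 0.15 (-0.38 to 0.67) and Hgf, a growth factor related to plasminogen, by 0.12 (-2.12 to 2.37). The largest negative differences were those of Procr, the protein C receptor, at -0.21, Serpini1, neuroserpin, at -0.16, Lrp1, a receptor that clears activator and inhibitor complexes, at -0.11, and Serpinb9, an inhibitor of granzyme B, at -0.06. None of these genes passed the test (adjusted p = 1.00 in limma).

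Of 34 listed matrix proteases and inhibitors 32 were on the array and 30 were tested, with 13 positive and 17 negative differences, a median of -0.01 and 0 called in limma. No probe carried the name Timp4. Mmp2 and Mmp14, the gelatinase and the membrane enzyme that activates it together with Timp2, were saturated on all 4 arrays, so their differences were not measured. Mmp9, the other gelatinase, stood at -0.29 and 0.82 with testosterone and -0.14 and 0.73 in control, a difference of -0.03 (-1.39 to 1.34). Mmp3, stromelysin 1, differed by 0.20, Mmp10, stromelysin 2, by 0.21 and the collagenase Mmp13 by 0.41 (-2.78 to 3.61). Adamts4, an aggrecanase, had levels of -3.85 and -3.58, against control levels of -3.96 and -4.17, apart by 0.34 (-0.23 to 0.91). Mmp24, a membrane-type enzyme, was apart in the other direction by -0.33 (-0.97 to 0.32). They were the only genes of the 30 tested apart, 1 each way, where 6.03% of all genes were apart upward and 9.09% downward. Mmp7, matrilysin, differed by -0.31 (-5.23 to 4.62), Mmp19 by -0.20 (-0.83 to 0.44) and Adamts5, the other aggrecanase, by -0.19 (-1.27 to 0.89). The difference of Adamts5 was 0.32 in number 1 and -0.70 in number 2, and that of Mmp10 was 0.89 and -0.46. The probes of Mmp2, Mmp9, Mmp14, Mmp24 and Adamts4 lay in columns 57 to 85.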

How the data were processed

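Per the labels' protocols, oligo-dT primed cRNA carrying Cy3 was made from total RNA and put on Agilent 4x44k rat arrays. Feature Extraction 11.5.1.1 wrote the scanner files, per the file headers, and the submitters' processing notes name version 10.5. The deposited scanner files hold linear intensity values (processed signal, mean signal, local background), with flags for detection, saturation and outliers, and probe positions on rn4. The authors' deposited value table is on the log2 scale and equalled the log2 processed signal minus 1 constant per array (8.79, 8.63, 8.38 and 8.55 for testosterone 1, control 1, testosterone 2 and control 2) over 40749 probes, so its scale, centring and direction were known; its column medians were -3.61, -3.62, -3.34 and -3.45 in that order.

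Each level is the log2 of the processed signal after subtracting the log2 of the 75th percentile of that array's non-control spots. Control and outlier spots were left out, saturated spots kept, and spots of a probe averaged. Detection required at least 0.5 of a probe's spots. The brightest tested probe stood for a gene. Groups were compared with limma 3.58.1 in R 4.3.3 (lmFit, eBayes, 2-sided, Benjamini-Hochberg over all 22046 genes, called under 0.05) without covariates. The fit was tested on simulated data. An exact permutation test of 2 against 2 arrays cannot go below 0.333, so none is given. Exon and UTR positions were not used here. The number of arrays limits the precision.

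Named genes were all members, up to 4 per direction and list with the largest differences among genes detected and unsaturated on all 4 arrays, and Plg, Mmp2, Mmp9, Mmp14 and Timp4; 1 further gene of the rule is not reported here. The members, the lists and the rule were chosen with earlier results of these data known. Alternatives covered background correction, normalization, detection filter, probe choice, replicate block, single arrays and columns 57 to 85, an area that earlier results of these data had pointed to.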

Additional observations from a re-analysis of the deposited data

How the results depend on the processing

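No member was called in limma under any alternative run, and the smallest adjusted p was 0.982, without testosterone replicate 1, against 1.00 otherwise. Over the alternatives that kept all 4 arrays, Plau stayed negative between -0.17 and -0.12, Plaur negative, and Timp3 positive between 0.08 and 0.13. With normexp and quantile normalization the differences of the saturated Serping1, Timp1 and Timp2 probes turned to -0.014, -0.024 and -0.0004878. There 1 of 8 members had its groups apart downward, as did 2361 of all 22046 genes tested. With quantile normalization alone Plat turned to -0.046, and 1 of 8 members was apart upward, as were 1325 of all 22046 genes tested. Single members apart are near these backgrounds. The cause was not tested.

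Leaving out 1 array at a time moved Plat between -0.11 and 0.19, Plau between -0.62 and 0.34, Plaur between -0.43 and 0.19 and Serpinf1 between -0.53 and 0.62. Serping1 ran from -0.16 to 0.25, Timp1 from -0.19 to 0.25, Timp2 from -0.17 to 0.24 and Timp3 from -0.040 to 0.28. The lone array of a group was then assumed to vary like the other group. Members apart numbered 0 to 4 upward and 0 to 4 downward, and genes apart 4219 to 9105 upward and 5237 to 8989 downward, since 1 array cannot overlap itself. Without control replicate 2, 35 genes were called higher, and with each other array left out 0 were. Genes apart upward numbered 1330 of 22046 tested in the main run and 3686 of 35665 without the detection filter. Without probes in columns 57 to 85 they numbered 804 of 15315. Without those spots, an alternative chosen after seeing the data, they numbered 805 of 15461. The totals tested differ, so these counts are not comparable as they stand.

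The labels do not say that replicate numbers mark shared cultures, and deviations of same-numbered arrays correlated at 0.589 over 24490 probes. With a replicate block 0 genes were called, and 618 rather than 175 had an unadjusted p under 0.05 in limma. The block left the members' differences as they were, such as -0.14 for Plau. Their unadjusted p in limma fell with it, from 0.754 to 0.487 for Plau and from 0.733 to 0.45 for Plaur. Counts of genes under that unadjusted p ranged from 38 with normexp and quantile normalization to 630 without the filter.

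With 2 arrays a group and no replicate block, the median 95% interval of a gene reached 0.64 to either side on the log2 scale. It was not adjusted for the number of genes, and the spread between array numbers counted in it. Differences smaller than that were mostly not detectable. Larger ones were not called after adjustment either, such as 2.58 for Ddx4 and -1.29 for the smooth muscle marker Lmod1. Both genes were well above background on just 3 of the 4 arrays. Each difference rested on 1 low array, control array 1 for Ddx4 at -7.59 and testosterone array 2 for Lmod1 at -7.45. In the other same-numbered pair the difference was 0.12 for Ddx4 and -0.26 for Lmod1. Saturation hides any change of Timp1 and Timp2, and Serpine2 was near background.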
